A study of Sus scrofa with 6 samples.

Results

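Smooth muscle cells and pericytes were selected from single-cell RNA-seq of neonatal piglet ileum by their own transcripts, and 310 of 76099 cell barcodes met the rule. A unique molecular identifier (UMI) stands for 1 captured RNA molecule. A barcode was a member if it held at least 1000 UMIs and 500 genes, at least 5 UMIs of RERGL, RASL12, ACTA2 and TAGLN summed, more of these than of the collagens COL3A1, COL1A1 and COL1A2 summed, no UMI of the endothelial gene PECAM1, at most 1 UMI of the leukocyte gene PTPRC, and fewer than 10 UMIs of the epithelial genes EPCAM, KRT8 and VIL1 summed. These values chose the cells, so levels of the rule genes are given as a description only. Of the members, 97 came from day 0, 151 from day 1, 56 from day 3, 0 from day 7, 4 from day 14 and 2 from day 21.

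The 6 libraries were made from the ileum of Large White piglets that the labels give as male, at ages of 0, 1, 3, 7, 14 and 21 days, 1 library at each age. All piglets were full-term, unmodified animals fed maternal milk, and no age received a treatment. The study scraped the mucosa, released cells with EDTA on ice and a brief TrypLE digestion, and passed them through a filter, so muscle and vessel walls below the mucosa were sampled only as far as that procedure loosened them. With 1 library at each age there was no replicate, and no difference between ages was tested. Every interval below is a 95% interval for counting error only, which does not cover differences between piglets or preparations. Intervals of levels and ratios count summed UMIs as independent, so they do not cover differences between cells either. They are too narrow where few cells hold most UMIs of a gene.

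Smooth muscle cells shorten when calcium and calmodulin activate myosin light chain kinase, which phosphorylates the light chains of smooth muscle myosin and lets it pull on actin filaments anchored at dense bodies. Visceral muscle of the gut wall and the thin muscle strands of the villus core carry gamma-actin (ACTG2), desmin (DES) and calponin (CNN1). Pericytes share much of this apparatus, but they sit in the basement membrane of capillaries, depend on PDGFB from endothelium through the receptor PDGFRB, use NOTCH3, and carry RGS5, a brake on G protein signalling. In the gut, both kinds of cell regulate blood flow, lacteal drainage or movement of the villus, and pericytes can also take part in recruiting leukocytes.

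The 4 rule genes did not contribute equally. ACTA2, smooth muscle alpha-actin (chromosome 14, 100868145 to 100886732 in Sscrofa11.1), stood at 59.3, 53.3 and 86.6 UMIs per 10000 on days 0, 1 and 3, where a level is the UMIs of a gene summed over the cells and divided by all their UMIs. TAGLN, the actin-binding protein transgelin (chromosome 9, 44561756 to 44567385), stood at 37.7, 59.9 and 72.7 UMIs per 10000. These abundant transcripts therefore decided nearly all memberships. RERGL, a small GTPase-like protein (chromosome 5, 54939384 to 54952059), was at 0.955, 0.335 and 0.703 UMIs per 10000, and RASL12, another small GTPase-like protein (chromosome 1, 163089440 to 163104027), at 1.04, 0.823 and 1.37. Both small GTPase genes were far rarer than ACTA2 and TAGLN and marked only some of the cells.

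Few cells lay near the limit of 5 UMIs. Exactly 5 rule UMIs were held by 5, 4 and 1 members on days 0, 1 and 3, and 7, 6 and 1 barcodes that met every other condition held 4. In members with 5 or 6 rule UMIs, RGS5 was at 9.74, 5.64 and 0 UMIs per 10000, against 9.10, 11.4 and 0 in barcodes just outside with 3 or 4. The other conditions removed more: of 176, 248 and 140 barcodes with at least 5 rule UMIs on days 0, 1 and 3, the collagen condition removed 52, 72 and 71. On days 14 and 21, 22 of 32 and 21 of 30 such barcodes were removed for PTPRC, and their median PTPRC count was 11 and 7 UMIs.

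Members were of ordinary depth. Their median was 3417, 3986 and 4971.5 UMIs and 1462, 1726 and 2112.5 genes on days 0, 1 and 3, so cells of the day 3 library were the deepest. Thinned to 1000 UMIs each, they held a median of 609, 622 and 649.5 genes. The median mitochondrial share was 5.52%, 4.08% and 4.98%. Epithelial rule UMIs were absent from 70, 130 and 54 members, and the highest count in a member was 8, 2 and 1. Of the 310 members, 10 carried a barcode that also passed the depth filter in another library, and none of these was a member there. The summed counts behind the levels were 356198, 656116 and 313085 UMIs.

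The cells were found almost entirely in the first 3 libraries. They made up 0.895% of passing barcodes on day 0 (95% exact interval 0.727 to 1.09), 1.31% on day 1 (1.11 to 1.54) and 0.493% on day 3 (0.373 to 0.640). None was found among 12634 barcodes on day 7, which allows a share of up to 0.0237% by the limit of 3 counts and 0.0292% by the exact interval. The share was 0.0251% on day 14 (0.00683 to 0.0642) and 0.0145% on day 21 (0.00175 to 0.0523). The intervals of days 0 and 1 and of days 1 and 3 did not overlap. The order of days 0 and 1 changed only where the limit was set relative to depth. With 5 rule UMIs per 10000 the shares were 1.69%, 1.66% and 0.704%. That limit admitted more barcodes, 183, 191 and 80 on days 0, 1 and 3. Day 1 stayed above day 0 under the other settings tried. The shares of days 0 and 1 were 0.766% and 1.17% with at least 10 rule UMIs, and 0.985% and 1.43% with a mitochondrial share under 25%. Fibroblast-rule cells (at least 5 UMIs of the same collagens, above the muscle genes, under the same exclusions) numbered 250, 321, 167, 0, 2 and 0 over the 6 libraries, and endothelial-rule cells (at least 3 UMIs of PECAM1 and CDH5 summed, with fewer than 5 of the rule genes and fewer than 5 of the collagens) 227, 261, 27, 4, 2 and 1. Other stromal classes were thus equally scarce from day 7 on. Whether tissue composition or the release of stroma from the scraped mucosa differed cannot be told apart.

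**Figure D1:**
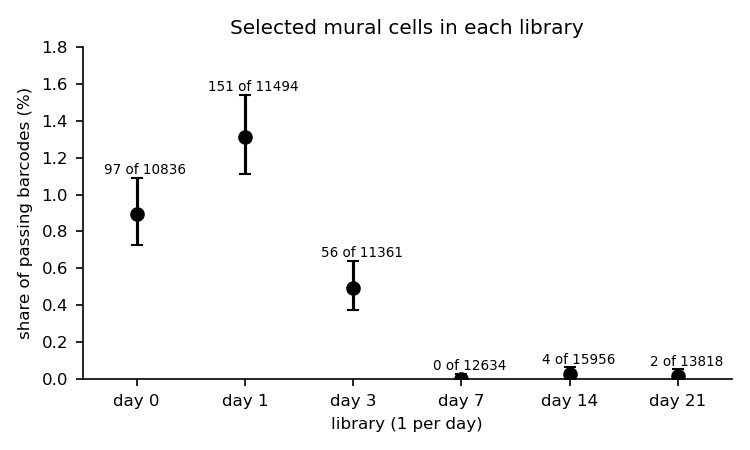
Share of passing barcodes (percent) in the 6 libraries that met the smooth muscle and pericyte rule, with points for each library and bars for the 95% exact counting interval. The share was 0.895%, 1.31% and 0.493% on days 0, 1 and 3 and at most 0.0251% later.

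The selected cells were not 1 population. Clustering of the members gave 8 clusters, which were read against marker lists. The largest class, 201 cells in 3 clusters, was pericyte-like: the summed level of 8 pericyte markers was 52.9, 45.5 and 52.8 UMIs per 10000 in its clusters. A second class of 56 cells in 2 clusters was smooth muscle-like, with 7 smooth muscle markers summing to 138 and 177 UMIs per 10000 and pericyte markers to 1.75 and 2.38. Another class, of 21 cells, was enteric glia-like, and 2 further clusters of 20 and 12 cells were led by leukocyte genes and by cell cycle genes. The genes that separate these clusters were also used to form them, so their levels describe the clusters and test nothing.

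The pericyte-like cells carried the vascular programme. RGS5 stood at 32.7 UMIs per 10000 in them and 0.752 in the smooth muscle-like cells. NOTCH3 stood at 4.62 against 0.251, PDGFRB at 5.94 against 0.322 and the gap junction protein GJA4 at 6.52 against 0.0716. The potassium channel subunit KCNJ8, part of the ATP-sensitive channel of mural cells, was at 2.08 against 0.0716. EBF1, a transcription factor of pericytes, was at 4.88 against 0 and the vasopressin receptor AVPR1A at 1.38 against 0. Of the growth factors that act on vessels, PDGFA was at 3.33 against 0.0358, ANGPT1 at 2.18 against 0.0716 and ANGPT2 at 2.25 against 0.0358 UMIs per 10000. The whole PDGF, TGF and angiopoietin list differed less, summing to 26.0, 33.1 and 29.4 on days 0, 1 and 3 in pericyte-like cells and to 19.9, 22.7 and 16.9 in smooth muscle-like cells. RERGL and RASL12, at 0.921 and 1.51 UMIs per 10000 in pericyte-like cells, were at 0 in the smooth muscle-like cells, so of the rule genes only ACTA2 and TAGLN chose the latter.

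The smooth muscle-like cells carried the visceral programme. ACTG2 stood at 58.2 UMIs per 10000 in them and at 0.644 in pericyte-like cells. Smooth muscle myosin heavy chain MYH11 was at 32.5 against 7.50, DES at 9.99 against 1.86, CNN1 at 8.81 against 0.871 and the myosin light chain kinase MYLK at 38.3 against 13.5. Some secreted regulators were also higher there: the hedgehog-binding protein HHIP was at 13.2 against 0.0126, the BMP antagonist GREM1 at 5.19 against 0.278 and the chemokine CXCL14 at 32.0 against 5.06. The whole WNT, BMP and hedgehog list went the other way as a sum, at 66.9, 48.1 and 57.1 UMIs per 10000 on days 0, 1 and 3 against 88.8, 91.6 and 100.3 in pericyte-like cells. Of the matrix genes MFAP4 was at 20.4 against 2.46 and fibronectin FN1 at 9.70 against 1.74, while the interstitial matrix list summed to 126, 106 and 100.2 against 41.1, 91.9 and 92.8 on the 3 days. Not every contractile gene was higher in muscle: caldesmon (CALD1) was at 20.5 against 40.9 UMIs per 10000 in pericyte-like cells, and the matrix protein IGFBP7 at 13.2 against 54.4.

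The 2 smooth muscle-like clusters differed in their leading genes. One cluster was led by KCNMA1, the large-conductance potassium channel, at 1.93 UMIs per 10000, with SHISA3 at 3.31, complement C4A at 7.71 and GREM1 at 8.73. The other was led by ARHGAP28, cardiac alpha-actin ACTC1 at 10.6 and the integrin ITGB3 at 1.76, and it held HHIP at 24.1, COL3A1 at 40.0 and periostin (POSTN) at 23.6 UMIs per 10000. Fibroblast markers were found in both clusters, 8 of 10 in at least 10% of the cells of each, summing to 59.1 UMIs per 10000 in the first and 106 in the second, against 20.6 to 28.6 in the pericyte-like clusters. That list includes the collagens of the rule, which a member could hold only below its rule UMIs. Median rule UMIs were 83.5 in smooth muscle-like and 30 in pericyte-like cells.

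The 3 pericyte-like clusters were tied to libraries. The first held 75, 7 and 27 cells of days 0, 1 and 3, the second 0, 52 and 1, and the third 1, 25 and 7. Leading genes of the second were the stress-responsive RASD1 at 13.4 and GADD45A at 13.1 UMIs per 10000, with the protease ADAMTS4 at 5.83. The last was led by the interferon-induced CXCL10 at 47.9, ISG15 at 23.4 and MX1 at 3.06, with TIMP1 at 51.6. The first was led by LGALS2 at 2.22 UMIs per 10000, an enterocyte gene that stood at 21.8 in the free RNA of day 0, which is the RNA summed over barcodes of 1 to 100 UMIs. Pericyte-like values of days 0 and 3 below therefore come largely from the first cluster and those of day 1 largely from the other two.

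**Figure D2:**
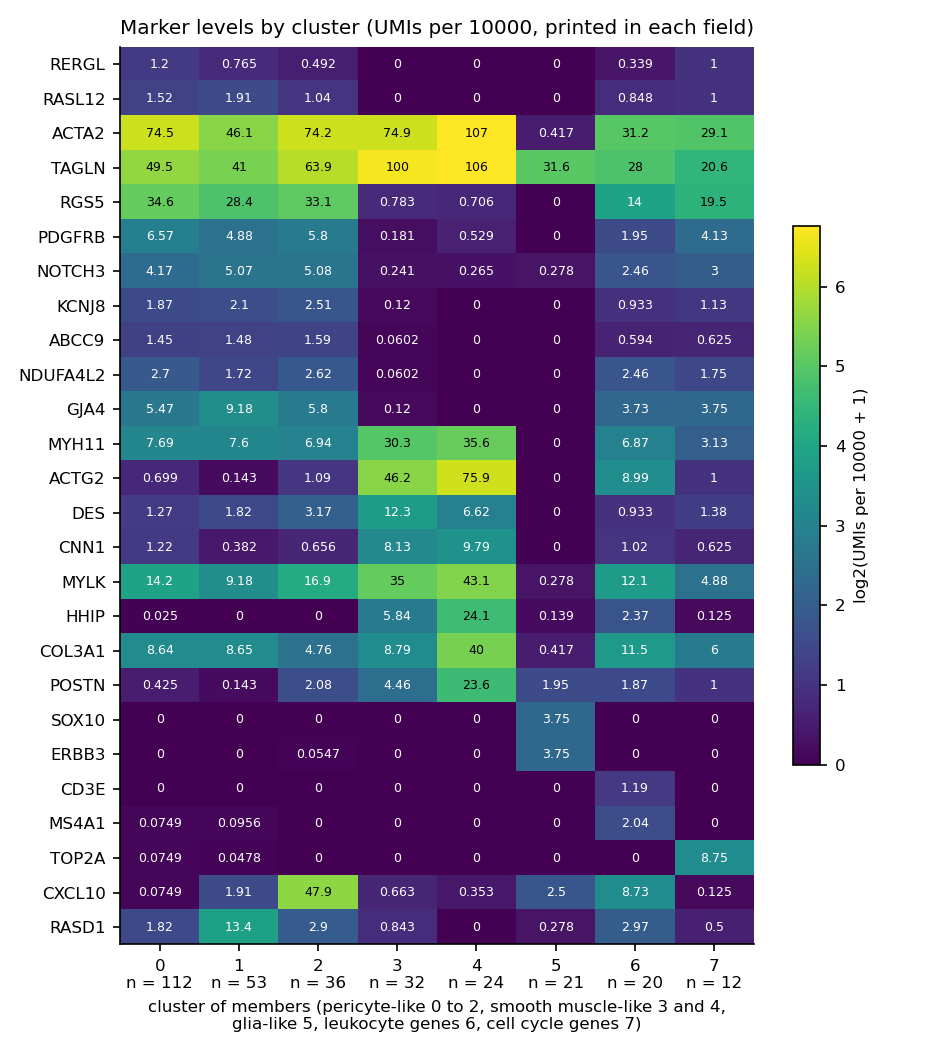
Levels of marker genes (UMIs per 10000, printed in each field and coloured by log2 of the level plus 1) in the 8 clusters of the 310 members. Pericyte genes such as RGS5 are high in the 3 pericyte-like clusters, and ACTG2 and DES in the 2 smooth muscle-like clusters.

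Because cluster limits follow the libraries, the makeup was also read without clusters, with every cell thinned to 1000 UMIs. On day 0, 74.2% of members had a UMI of RGS5 or NOTCH3 and none of ACTG2 or DES (95% exact interval 64.3 to 82.6), and 7.22% had the reverse (2.95 to 14.3). On day 1 these shares were 38.4% (30.6 to 46.7) and 23.8% (17.3 to 31.4), and on day 3 they were 53.6% (39.7 to 67.0) and 19.6% (10.2 to 32.4). The day 1 library thus had a smaller RGS5 or NOTCH3 share and a larger ACTG2 or DES share than the day 0 library, with no overlap of the intervals. Cells with UMIs of both pairs were 7.22%, 9.93% and 16.1%, and cells with neither 11.3%, 27.8% and 10.7%. In the clusters, pericyte-like cells were 76, 84 and 35 of the members on days 0, 1 and 3 and smooth muscle-like cells 7, 40 and 9. Any gene that differs between muscle and pericytes therefore carries this makeup in the day values below.

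Some members went against the label. The 21 glia-like cells (3, 14 and 4 on days 0, 1 and 3) held 98.7% of their rule UMIs as TAGLN, with a median of 9 rule UMIs. All 7 glial and neuronal markers were found in them, summing to 21.4 UMIs per 10000, among them SOX10 at 3.75, while ACTA2 was at 0.417 and the 8 pericyte markers summed to 0.278. Their epithelium markers summed to 91.2 UMIs per 10000, carried by APOA1. The 20 cells led by leukocyte genes (7, 9 and 4) held pericyte markers at 23.7, B and plasma cell markers at 20.5 and T cell markers at 12.7 UMIs per 10000, and 60% had a PTPRC UMI. In them CD3E was at 1.19 UMIs per 10000 and at 0 in every other cluster, and CTSW was at 8.06 and at most 0.139 elsewhere. Their median depth was 5166.5 UMIs. Counts without these 41 cells are given with the comparisons of days.

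Markers of other cell types were also summed over all members. The lists include genes that the rule limited: PECAM1, PTPRC, EPCAM, KRT8, VIL1 and the collagens. Endothelial-rule and fibroblast-rule cells were likewise chosen by genes of their own lists. These sums were thus partly set by the rules and are given as a description. The endothelial markers summed to 3.17, 1.40 and 1.98 UMIs per 10000 on days 0, 1 and 3, against 85.5, 82.2 and 78.8 in endothelial-rule cells. Fibroblast markers summed to 25.4, 35.3 and 48.2, against 188, 179 and 154 in fibroblast-rule cells. T and natural killer cell markers summed to 1.60, 2.07 and 0.383, myeloid markers to 0.955, 1.60 and 0.607, and epithelium markers to 5.98, 8.08 and 6.68 UMIs per 10000. B and plasma cell markers summed to 3.54, 4.01 and 2.84 and erythroid markers to 0.168, 0.899 and 0.0639. The epithelium sum was 57.9, 49.8 and 1.70 in all other cells. On day 3 it was 1.01 in pericyte-like and 0.516 in smooth muscle-like cells, so the higher sum over all members did not come from these classes. Fibroblast markers were the strongest of these and were highest on day 3. Their list includes the collagens of the rule, which a member could hold only below its rule UMIs. Median rule UMIs of members were 21, 36 and 69.5 on days 0, 1 and 3. The part of this ceiling in the fibroblast sums was not tested. In each library 9 of the 10 fibroblast markers had a UMI in the members.

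The members carried the contractile apparatus well above fibroblast-rule cells of the same libraries. This contrast is close to the one the rule made, and it is given as a description. Of 3356 genes that could be compared in all 3 libraries, 116 (3.46%) were at least 2-fold higher in members in each library and 161 (4.80%) at least 2-fold lower. Of the thin filament genes, 6 of 11 were higher in all 3 (ACTG2, TPM1, TPM2, CNN1, CALD1 and SMTN), of the myosin genes 6 of 12, and of the dense body genes 11 of 19. Myosin regulatory light chain MYL9 was at 6.79, 5.85 and 13.8 UMIs per 10000 on days 0, 1 and 3, against 0.605, 0.645 and 0.708 in fibroblast-rule cells. Tropomyosin TPM2 was at 10.6, 8.92 and 15.7, against 2.08, 1.18 and 2.63.

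Single genes of calcium handling, adhesion and nitric oxide signalling stood above fibroblast-rule cells. As a list, none of the 3 calcium and ion channel genes that could be compared was at least 2-fold higher in all 3 libraries. Phospholamban (PLN), which restrains the calcium pump of the reticulum, was at 1.63, 1.16 and 1.15 UMIs per 10000, against 0.0324, 0.0376 and 0 in fibroblast-rule cells, and its lowest ratio to all other passing cells over the 3 days was 318, the highest of the genes ranked that way. The integrin ITGA7, a laminin receptor of muscle, was at 1.97, 1.88 and 2.27, against 0.108, 0.0501 and 0.115, with a lowest ratio to all other cells of 299. Both subunits of the nitric oxide receptor, GUCY1A3 (2.50, 2.67 and 4.09) and GUCY1B3 (3.56, 2.79 and 4.50), were present on all 3 days. Of the vasoactive signalling genes, 4 of 10 were higher than in fibroblast-rule cells in all 3 libraries (GUCY1A3, GUCY1B3, PDE5A and RGS5), against 3.46% of all genes. The endothelin receptor EDNRB was lower, at 0.337, 1.10 and 0.639 against 2.93, 2.77 and 2.30.

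Of the pericyte genes 8 of 10 were at least 2-fold above fibroblast-rule cells in all 3 libraries, against 3.46% of all genes, and none was lower. RGS5 (chromosome 4, 87286953 to 87340816) was at 26.9, 15.9 and 27.4 UMIs per 10000 in the members, against at most 0.821 in fibroblast-rule cells and 0.281 in free RNA, and its lowest ratio to all other cells was 230. NOTCH3 (chromosome 2, 62364507 to 62402348) was at 2.72, 3.05 and 3.87, against 0.141, 0.175 and 0.333 in fibroblast-rule cells. The calcineurin regulator RCAN2 was at 5.98, 6.14 and 6.16, against 0.205, 0.132 and 0.520, and so differed little among the 3 libraries. FHL5, a LIM-domain coactivator, was at 4.91, 3.63 and 4.63, and the leukotriene receptor CYSLTR2 at 1.82, 1.42 and 2.04 UMIs per 10000. Thinned to 1000 UMIs per cell, 78.4%, 45.7% and 64.3% of members had an RGS5 UMI.

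Of the transcription factor genes, 5 of 12 were at least 2-fold above fibroblast-rule cells in all 3 libraries, against 3.46% of all genes. They were MEF2C, TBX2, HEYL, NR2F2 and EBF1. MEF2C, a muscle transcription factor, was at 4.16, 3.92 and 3.96 UMIs per 10000 on days 0, 1 and 3. NR2F2, a factor of veins and mesenchyme, was at 3.85, 5.29 and 4.73. The coactivator that drives the smooth muscle programme, MYOCD, had 0, 3 and 3 UMIs in all, and its partner SRF 10, 11 and 11, so neither could be followed at this depth.

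Interstitial matrix and niche genes stood in the opposite direction, where 4.80% of all genes were lower in all 3 libraries. Of 26 fibrillar and interstitial matrix genes, 14 were at least 2-fold lower in members in all 3 libraries and none higher, while of the basement membrane genes 1 of 17 was lower and none higher, near the share of all genes. Collagen IV COL4A1, the core of the vessel basement membrane, was at 31.9, 26.4 and 43.6 UMIs per 10000, against 38.0, 26.4 and 29.1 in fibroblast-rule cells. The WNT and BMP niche genes were lower for 7 of 16 and higher only for ID3. BMP4 was at 0.168, 0.411 and 0.319, against 3.99, 4.82 and 4.50, and the receptor PDGFRA at 0.0281, 0.137 and 0.0319, against 5.28, 5.09 and 5.62. Of the chemokine and cytokine genes, 6 of 14 were lower and none higher.

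**Figure D3:**
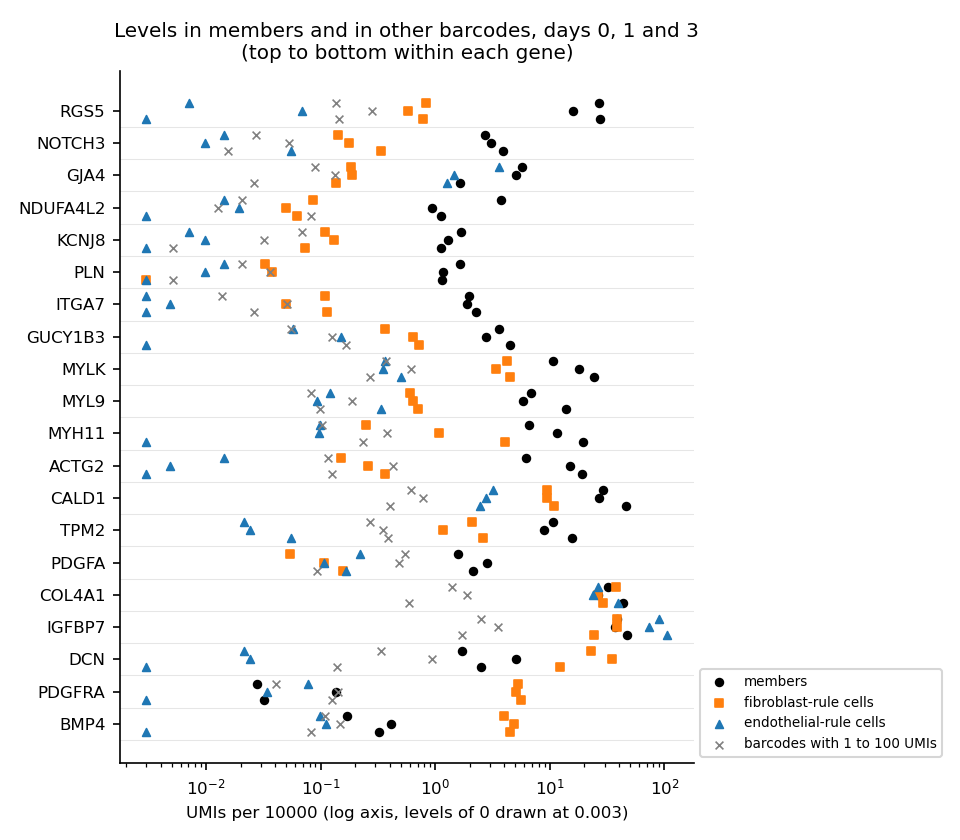
Levels (UMIs per 10000, log axis) of selected genes on days 0, 1 and 3, from top to bottom within each gene, in the members, fibroblast-rule cells, endothelial-rule cells and free RNA. RGS5 was between 15.9 and 27.4 in the members and at most 0.821 in the other sets shown.

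Between days, a gene was compared if it had at least 50 UMIs over both libraries, and it was counted as different if its levels differed at least 2-fold. The 3 comparisons share libraries, so a high or low value on 1 day enters a pair of them. The genes of each function were counted against all genes compared. Counts given for pericyte-like cells apply the same minimum within those cells, while those for fibroblast-rule cells and free RNA take the genes compared in the members, with no minimum of their own.

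Day 1 against day 0. Chemokine and interferon-induced genes stood higher in the day 1 cells, as did visceral muscle genes, while NDUFA4L2, IGF2, MDK and TGFB2 stood lower. Of 3089 genes compared, 252 (8.16%) differed at least 2-fold, 188 (6.09%) higher on day 1 and 64 (2.07%) lower, with a median log2 fold of 0.04. Without the glia-like and leukocyte-gene cells 219 genes differed, and in the pericyte-like cells alone 129.

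Chemokine, cytokine and adhesion genes had the highest median of the lists: 9 of 14 were at least 2-fold higher on day 1, against 6.09% of all genes, and none was lower, with a median log2 fold of 2.11. CCL2, which draws monocytes, was at 3.37 and 29.2 UMIs per 10000 on days 0 and 1, a ratio of 8.68 (7.21 to 10.5). The neutrophil chemokine CXCL2 was at 0.533 and 11.6, a ratio of 21.7 (13.8 to 36.3). CCL2 was seen in many cells: after thinning, 24.7% and 60.9% of members had a UMI, and the 3 highest cells of day 1 held 10.7% of the total. In the pericyte-like cells CCL2 was at 4.67 and 39.6 UMIs per 10000. CXCL10, by contrast, at 0.140 and 12.1, came from few cells, 3 of which held 70.4% of its day 1 UMIs.

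In pericyte-like cells alone 7 of 10 were higher and 1 lower, with a median log2 fold of 1.54. In fibroblast-rule cells 9 of the same 14 genes were higher and 1 lower, with a median log2 fold of 1.52, and in free RNA 8 were higher, with a median of 1.21. CCL2 stood at 6.10 and 19.8 UMIs per 10000 in fibroblast-rule cells and at 0.0822 and 1.17 in free RNA. The adhesion molecule VCAM1, to which leukocytes bind, was at 1.21 and 6.51 in the members, a ratio of 5.39 (3.93 to 7.56), and at 4.30 and 10.4 in fibroblast-rule cells. NFKBIA, the inhibitor that NF-kB induces against itself, was at 0.449 and 4.39, a ratio of 9.77 (5.92 to 17.3), with free RNA at 1.25 and 3.74. The part of free RNA in these values was not tested.

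Interferon-stimulated and antigen presentation genes were higher for 5 of 7, against 6.09% of all genes, with a median log2 fold of 1.23. In fibroblast-rule cells 3 of the 7 were higher and none lower, with a median of 0.83. ISG15, a ubiquitin-like antiviral protein, was at 1.35 and 7.45 UMIs per 10000, a ratio of 5.53 (4.11 to 7.60), and B2M, the light chain of MHC class I, at 5.03 and 10.1. ISG15 came from few cells, 3 of which held 43.8% and 58.5% of its UMIs, and the median cell held none. Free RNA held 4 of the 7 higher, with a median of 1.21, and ISG15 in it was at 1.99 and 6.02, close to the level in the members. The pericyte-like cluster led by interferon genes, with 1 cell of day 0 and 25 of day 1, held ISG15 at 23.4 UMIs per 10000, against 0.999 and 1.63 in the other pericyte-like clusters.

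Visceral smooth muscle genes were higher for 6 of 12 on day 1, against 6.09% of all genes, with a median log2 fold of 1.02. In fibroblast-rule cells 2 were higher, with a median of 0.24, and in free RNA 7, with a median of 1.31. ACTG2 was at 6.18 and 14.9 UMIs per 10000, a ratio of 2.41 (2.08 to 2.80), and DES at 0.730 and 4.48, a ratio of 6.14 (4.11 to 9.56). The smooth muscle-like cells numbered 7 on day 0 and 40 on day 1. Within the pericyte-like cells 4 visceral genes could be compared, 1 of them higher, with a median of 0.28, and within the smooth muscle-like cells ACTG2 was at 64.4 and 47.9. In pericyte-like cells DES was at 0.772 and 2.39 and ACTG2 at 0.325 and 0.540. Of the thin filament genes only ACTG2 of 12 was higher, and of 13 myosin genes none differed. The dense body and anchoring genes had 5 of 22 higher and none lower (among them DES, ITGA5 and SYNM), with a median of 0.08. In pericyte-like cells alone 1 of 17 was higher and none lower, with a median of -0.07. In fibroblast-rule cells 2 of the 22 were higher and 1 lower, and in free RNA 5 were higher and none lower.

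Elastic and interstitial matrix genes were higher for 7 of 21 and lower for none, against 6.09% of all genes higher, with a median log2 fold of 0.42. In fibroblast-rule cells 3 were higher, with a median of 0.11, and in free RNA 9, with a median of 0.96. MGP, an inhibitor of calcification made by vessel walls, was at 7.72 and 28.1 UMIs per 10000, a ratio of 3.64 (3.20 to 4.14), and at 9.59 and 37.4 in pericyte-like cells. In fibroblast-rule cells it was at 1.04 and 24.8. TIMP1, an inhibitor of matrix proteases, was at 1.94 and 17.1, a ratio of 8.85 (6.94 to 11.5), with 3 cells holding 41.5% of the day 1 UMIs. Decorin (DCN), at 1.71 and 5.08 in all members, had the opposite direction in pericyte-like cells, with a ratio of 0.429. Within pericyte-like cells 2 of 12 of these matrix genes were higher and 2 lower, with a median of 0.12, and the summed level of the list was 41.1 and 91.9 UMIs per 10000. Of the basement membrane genes, in all members, 1 of 16 was higher (SPARC) and 1 lower (AGRN), with a median of 0.17.

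Genes that stood lower on day 1 included NDUFA4L2, a mitochondrial protein of pericytes that hypoxia induces, at 3.73 and 0.930 UMIs per 10000, which is 4.02-fold lower. It was also lower in pericyte-like cells, at 3.98 and 1.68. TGFB2, a growth factor for mural cells, was at 2.81 and 0.991, which is 2.83-fold lower, while in fibroblast-rule cells it was at 0.324 and 0.300. The growth factor MDK was at 5.0 and 1.54, 3.25-fold lower, and in fibroblast-rule cells at 6.52 and 3.54. IGF2, the fetal insulin-like growth factor, was at 2.41 and 0.549, 4.40-fold lower, and in fibroblast-rule cells at 3.11 and 1.56. The growth signal list, which holds MDK and IGF2, had 4 of 11 genes higher and 3 lower, with a median log2 fold of -0.05. The PDGF and TGF list, which holds TGFB2, had 3 of 16 higher and 1 lower, with a median of 0.42. Of all genes 6.09% were higher and 2.07% lower. ID1, a target of BMP signalling, was at 9.60 and 4.60, a ratio of 0.479 (0.409 to 0.561). RGS5, at 26.9 and 15.9, had a ratio of 0.589 (0.539 to 0.644). In pericyte-like cells alone RGS5 was at 32.7 and 26.8.

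Day 3 against day 1. The day 3 cells had far fewer transcripts of most immediate early genes and of many chemokine genes, and more of MYL9, MYH9 and MYH10. Of 3029 genes compared, 313 (10.3%) differed at least 2-fold, 96 (3.17%) higher on day 3 and 217 (7.16%) lower. With libraries scaled by the trimmed mean of M values (TMM) the split was 55 higher and 251 lower, in place of 96 and 217, so higher genes were 18.0% of those that differed in place of 30.7%. The same scaling moved the median log2 fold of all genes from 0.07 to -0.07. Without the glia-like and leukocyte-gene cells 263 genes differed.

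Immediate early genes, which are transcribed within minutes of a stimulus and also during cell isolation, were lower on day 3 for 19 of 20, against 7.16% of all genes, with a median log2 fold of -2.89. FOS, a subunit of the AP-1 factor, was at 11.3, 19.1 and 0.511 UMIs per 10000 on days 0, 1 and 3, and was 37.3-fold lower on day 3 than on day 1. Its partner JUNB was at 14.7, 20.7 and 1.57, 13.2-fold lower, and the zinc finger factor EGR1 at 8.79, 12.4 and 0.798, 15.5-fold lower. The antiproliferative gene BTG2 was at 6.71, 14.1 and 0.479, 29.5-fold lower. After thinning, 52.6%, 62.3% and 1.79% of members had a FOS UMI. Between days 0 and 1, 4 of 21 genes of this group were higher, against 6.09% of all genes, and none lower, and in fibroblast-rule cells 7 were higher.

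The low level on day 3 was shared by other stroma and, to a smaller extent, by the other passing cells as a whole. In fibroblast-rule cells the same comparison gave 20 lower and none higher, with a median log2 fold of -2.96, and FOS stood at 7.42, 13.0 and 0.479 UMIs per 10000. Summed over the group, members were at 99.97, 148 and 18.3, fibroblast-rule cells at 60.6, 112 and 13.4, and free RNA at 88.6, 68.7 and 62.7 UMIs per 10000. Endothelial-rule cells were at 105.6, 126.8 and 34.35, and all passing cells other than members at 109.9, 92.4 and 49.97. In free RNA 4 of the genes were lower on day 3 than on day 1 and none higher, with a median log2 fold of -0.46. In pericyte-like cells FOS was at 14.6, 22 and 0.674, and in smooth muscle-like cells at 1.53, 9.12 and 0.172.

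Chemokine and cytokine genes were lower on day 3 for 8 of 13, against 7.16% of all genes, and higher for none, with a median log2 fold of -1.63. CCL2 went from 29.2 to 1.31 UMIs per 10000, 22.3-fold lower, and CXCL2 from 11.6 to 0.351, 33.0-fold lower, where at most 3 cells held all CXCL2 UMIs of day 3 and without the cells of highest doublet score the ratio was 0.00358. SOCS3, a feedback inhibitor of cytokine signalling, was at 5.64 and 0.415, 13.6-fold lower. CCL19, the chemokine that guides dendritic cells and naive T cells, was at 3.26 and 3.61 on days 1 and 3 and at 0.393 on day 0. The 3 highest cells held 28.6%, 62.6% and 33.6% of its UMIs on days 0, 1 and 3. In fibroblast-rule cells 5 of the same genes were lower and 1 higher, with a median of 0.02, and in free RNA 11 were lower, with a median of -1.89. In pericyte-like cells alone 4 of 9 were lower and none higher, with a median of -0.70. In fibroblast-rule cells CCL2 was at 19.8 and 3.63 UMIs per 10000. Interferon-stimulated and antigen presentation genes were lower on day 3 for 4 of 8, with a median log2 fold of -0.88, though IFI6 was at 9.82 and 13.2. Of these 8 genes, fibroblast-rule cells had 2 lower and 1 higher, with a median of -0.15. Free RNA had 4 lower and none higher, with a median of -0.77.

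Elastic and interstitial matrix genes were lower for 4 of 22 and higher for none, against 7.16% of all genes lower and 3.17% higher, but their median log2 fold was 0.13. In pericyte-like cells 3 of 14 were higher and 2 lower, with a median of 0.58. There DCN, with 27 and 24 UMIs, and TNC, with 5 and 7, went the other way, with ratios of 1.76 and 2.77. In free RNA 14 of the matrix genes were lower, with a median of -1.71. Cell cycle genes were higher for 3 of 7 (HMGB2, MCM6 and PCNA). Without the cells of highest doublet score none of 6 passed 2-fold, with HMGB2 at a ratio of 1.93 and PCNA at 1.79, and in free RNA 6 of the 7 were higher, with a median of 1.56.

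None of 12 thin filament genes passed 2-fold, and their median log2 fold was 0.69, against 0.07 for all genes. In pericyte-like cells 3 of 10 passed, with a median of 0.77, and in fibroblast-rule cells 5 of the 12 were higher, with a median of 0.57. CALD1 was at 26.6 and 46.1 UMIs per 10000, a ratio of 1.73 (1.62 to 1.86), and TPM1 at 15.9 and 29.7, a ratio of 1.87 (1.71 to 2.05). Of the myosin genes 3 of 13 were at least 2-fold higher, against 3.17% of all genes, and in fibroblast-rule cells 2 were higher and 1 lower. They were MYL9 at 5.85 and 13.8, a ratio of 2.36 (2.05 to 2.71), and the nonmuscle heavy chains MYH9 at 3.54 and 7.28 and MYH10 at 0.930 and 2.43. With TMM scaling MYH9 was at a ratio of 1.87, and 2 of the 13 were higher. Within the classes, in pericyte-like cells MYL9 was at 5.57 and 14.9 and CALD1 at 35.2 and 63.1, and in smooth muscle-like cells MYL9 was at 9.28 and 22.7. The rule chose members mostly by ACTA2 and TAGLN above collagens, and the part of this choice in the contractile values was not tested.

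Of the dense body and anchoring genes 4 of 23 were higher on day 3 and 1 lower, and of the basement membrane genes 1 of 16 was higher, against 3.17% of all genes higher. Filamin A (FLNA), which crosslinks actin, was at 5.71 and 11.6 UMIs per 10000, a ratio of 2.02 (1.75 to 2.34), and the collagen receptor subunit ITGA1 at 6.23 and 12.6, a ratio of 2.01 (1.75 to 2.32). Both lay close to the limit: with TMM scaling FLNA was at a ratio of 1.84 and ITGA1 at 1.83, and 1 of the 23 genes was higher in place of 4. The basement membrane genes had a median log2 fold of 0.54, and the gene past 2-fold was AGRN, agrin, at 0.427 and 1.28. COL4A1 was at 26.4 and 43.6, a ratio of 1.65 (1.54 to 1.77), and in fibroblast-rule cells at 26.4 and 29.1. Endothelial-rule cells held COL4A1 at 23.8 and 39.5.

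MDK and TGFB2, which were low on day 1, were higher again on day 3. They were among 2 of 11 growth signal genes and 1 of 16 PDGF and TGF genes that were higher, against 3.17% of all genes. MDK was at 1.54 and 4.92 UMIs per 10000, a ratio of 3.20 (2.47 to 4.15), and TGFB2 at 0.991 and 2.17, a ratio of 2.19 (1.54 to 3.13), which with TMM scaling no longer passed 2-fold. RGS5 was at 15.9 and 27.4, a ratio of 1.73 (1.58 to 1.89). Pericyte-like cells were 78.4%, 55.6% and 62.5% of members on days 0, 1 and 3. The part of this makeup in the values of MDK, TGFB2 and RGS5 was not tested. Among the pericyte genes GJA4, the connexin of arterioles and pericytes, was lower, at 5.03 and 1.63, a ratio of 0.324 (0.236 to 0.436). It was also lower in pericyte-like cells, at 8.26 and 2.42. The aminopeptidase ENPEP was at 1.31 and 0.351 in members, but free RNA was at 1.93 and 0.0675, above the members on day 1.

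**Figure D4:**
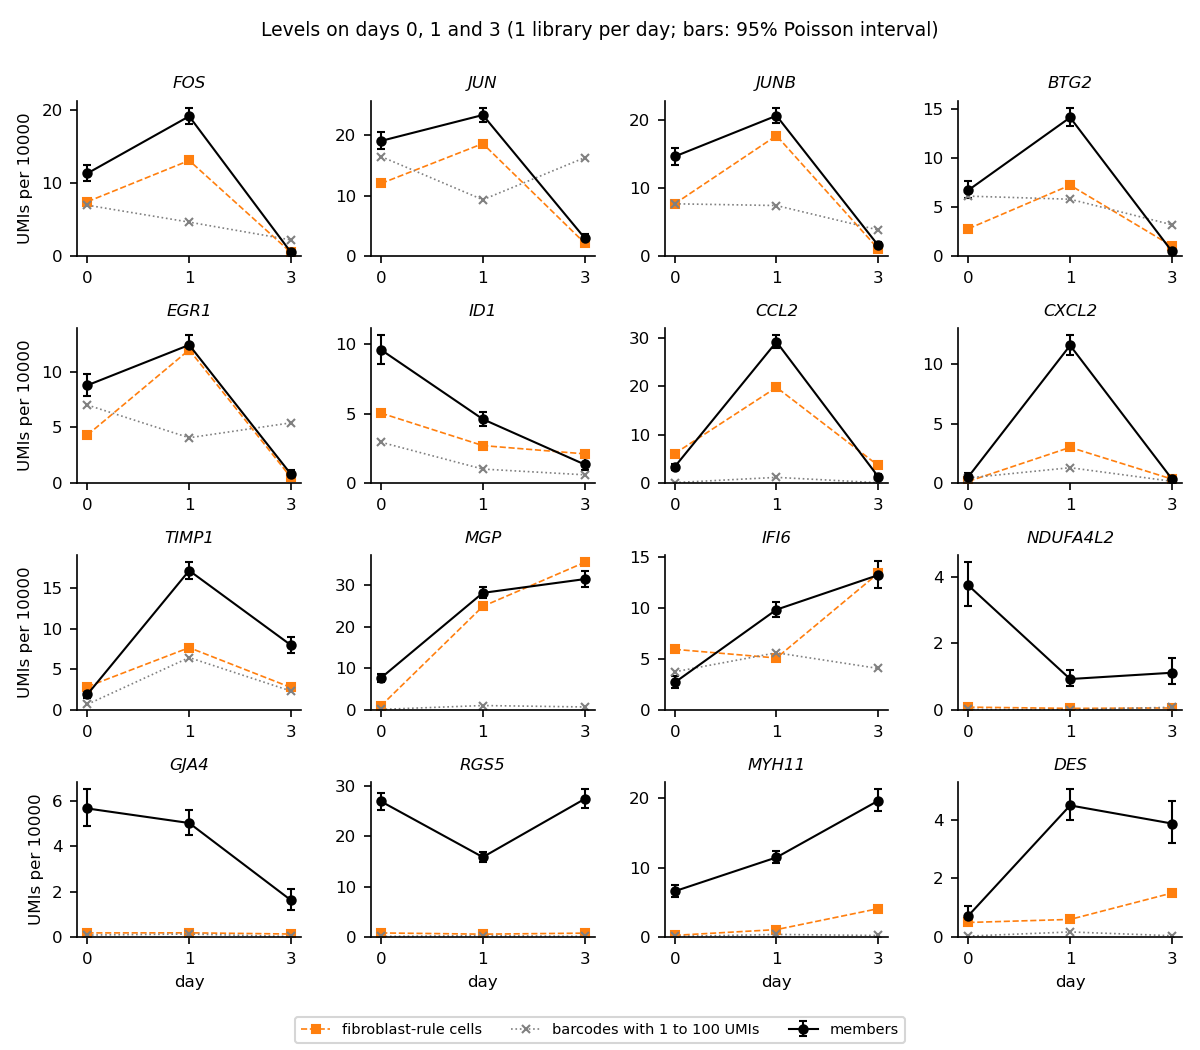
Levels (UMIs per 10000) of selected genes on days 0, 1 and 3 in members (black, with 95% exact Poisson intervals), fibroblast-rule cells (orange) and free RNA (grey). CCL2 in the members was at 3.37, 29.2 and 1.31, FOS at 11.3, 19.1 and 0.511, and MYH11 at 6.60, 11.5 and 19.6.

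Day 3 against day 0. Over the longest interval, several contractile genes were higher, and immediate early genes, ID1, GJA4 and NDUFA4L2 were lower. Of 2079 genes compared, 216 (10.4%) differed at least 2-fold, 107 (5.15%) higher on day 3 and 109 (5.24%) lower. With TMM scaling they were 74 higher and 125 lower, so the higher share was 37.2% in place of 49.5%, and the median log2 fold moved from 0.10 to -0.02. Among genes at least 2 times their free RNA level 84 were higher and 37 lower, a higher share of 69.4%. Without the glia-like and leukocyte-gene cells 199 genes differed.

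Contractile genes were higher for 3 of 12 thin filament genes (ACTG2, CNN1 and TPM1) and for 4 of 13 myosin genes (MYH10, MYH11, MYL9 and MYLK), against 5.15% of all genes, with medians of 0.71 and 0.68. With TMM scaling MYL9 was at a ratio of 1.86, and 3 of the 13 myosin genes were higher and 1 lower. In fibroblast-rule cells 5 thin filament genes were higher, with a median of 0.81, and 2 myosin genes were higher and 1 lower, with a median of 0.24. MYH11 (chromosome 3, 7002667 to 7143093) was at 6.60, 11.5 and 19.6 UMIs per 10000 on days 0, 1 and 3, so day 3 was 2.97 times day 0 (2.55 to 3.47). In fibroblast-rule cells it was at 0.249, 1.08 and 4.09. ACTG2 (chromosome 3, 69097366 to 69121542) was at 6.18, 14.9 and 19.0, 3.08 times day 0 (2.63 to 3.61). TPM1 was at 12.9, 15.9 and 29.7, 2.31 times day 0 (2.06 to 2.59), and in fibroblast-rule cells at 2.46, 3.17 and 10.0. Members were chosen by rule genes, mostly ACTA2 and TAGLN, standing above collagens. Their median rule UMIs were 21, 36 and 69.5 on days 0, 1 and 3. The collagen condition removed 52 of 176, 72 of 248 and 71 of 140 barcodes on these days. The part of this choice in the contractile values was not tested.

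These differences were also read within classes. In pericyte-like cells MYH11 was at 4.96, 6.84 and 12.6 UMIs per 10000, MYLK at 9.51, 12.2 and 22.5, and TPM1 at 12.4, 12.4 and 28.1. In smooth muscle-like cells MYH11 was at 26.0, 25.6 and 58.5 and TPM1 at 32.7, 29.7 and 57.1. Day 3 was thus the highest day for these genes in both classes, though the smooth muscle-like class held only 7 and 9 cells on days 0 and 3. ACTG2 in the summed cells rested on few cells: the 3 highest held 69.1%, 26.7% and 57.1% of its UMIs. The fibroblast markers were highest on day 3 too, summing to 22.3, 19.1 and 42.5 UMIs per 10000 in the pericyte-like cells on days 0, 1 and 3, and their part in the contractile values was not tested. The fibroblast list includes the collagens that the rule limited.

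Visceral muscle genes were higher for 4 of 9, against 5.15% of all genes, with a median log2 fold of 0.92. In pericyte-like cells 3 of 6 were higher and none lower, and in fibroblast-rule cells 5 were higher and none lower, with a median of 1.12. Elastic and interstitial matrix genes were higher for 5 of 15 and lower for 1, with a median of 0.56, and in fibroblast-rule cells 1 was higher and 3 lower, with a median of -0.22. Among the 5 was TIMP1, where 3 cells held 70.8% of the day 3 UMIs. Its ratio of 4.12 was 1.5 without the cells of highest doublet score. MGP was at 7.72 and 31.4 UMIs per 10000 on days 0 and 3, 4.06 times day 0 (3.55 to 4.66), and was 4.87 times higher in pericyte-like cells. In the fibroblast-rule cells it was at 1.04 and 35.4. Of 15 basement membrane genes only SPARC, a collagen-binding matrix protein, was higher, and none was lower. SPARC was at 1.26, 2.97 and 4.82 on days 0, 1 and 3, and IGFBP5, which binds insulin-like growth factors, at 0.393, 1.08 and 2.11. IFI6, an interferon-induced mitochondrial protein, was at 2.70, 9.82 and 13.2 on the 3 days. The 3 highest cells held 43.8%, 35.2% and 37.3% of its UMIs. Its ratio of day 3 to day 0 was 4.89, and 3.35 without the cells of highest doublet score. Of the 6 interferon-stimulated and antigen presentation genes compared, only IFI6 was higher and IRF1 was lower, with a median of 0.23.

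Immediate early genes were lower on day 3 than on day 0 for 13 of 15, against 5.24% of all genes, with a median log2 fold of -2.67, and in fibroblast-rule cells for 12, with a median of -2.47. ID1 was lower on each later day, at 9.60, 4.60 and 1.34 UMIs per 10000 on days 0, 1 and 3, 7.16-fold lower on day 3 than on day 0. In fibroblast-rule cells it was at 5.04, 2.70 and 2.10 and in free RNA at 2.94, 1.00 and 0.592, so lower values were found there too. Its relative ID3 was at 12.3, 8.40 and 8.18. GJA4 was at 5.67 and 1.63 on days 0 and 3, a ratio of 0.287 (0.207 to 0.392), and in endothelial-rule cells at 3.62 and 1.28. NDUFA4L2 was at 3.73 and 1.12, a ratio of 0.299 (0.200 to 0.437), and in the pericyte-like cells at 3.98 and 1.57.

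**Figure D5:**
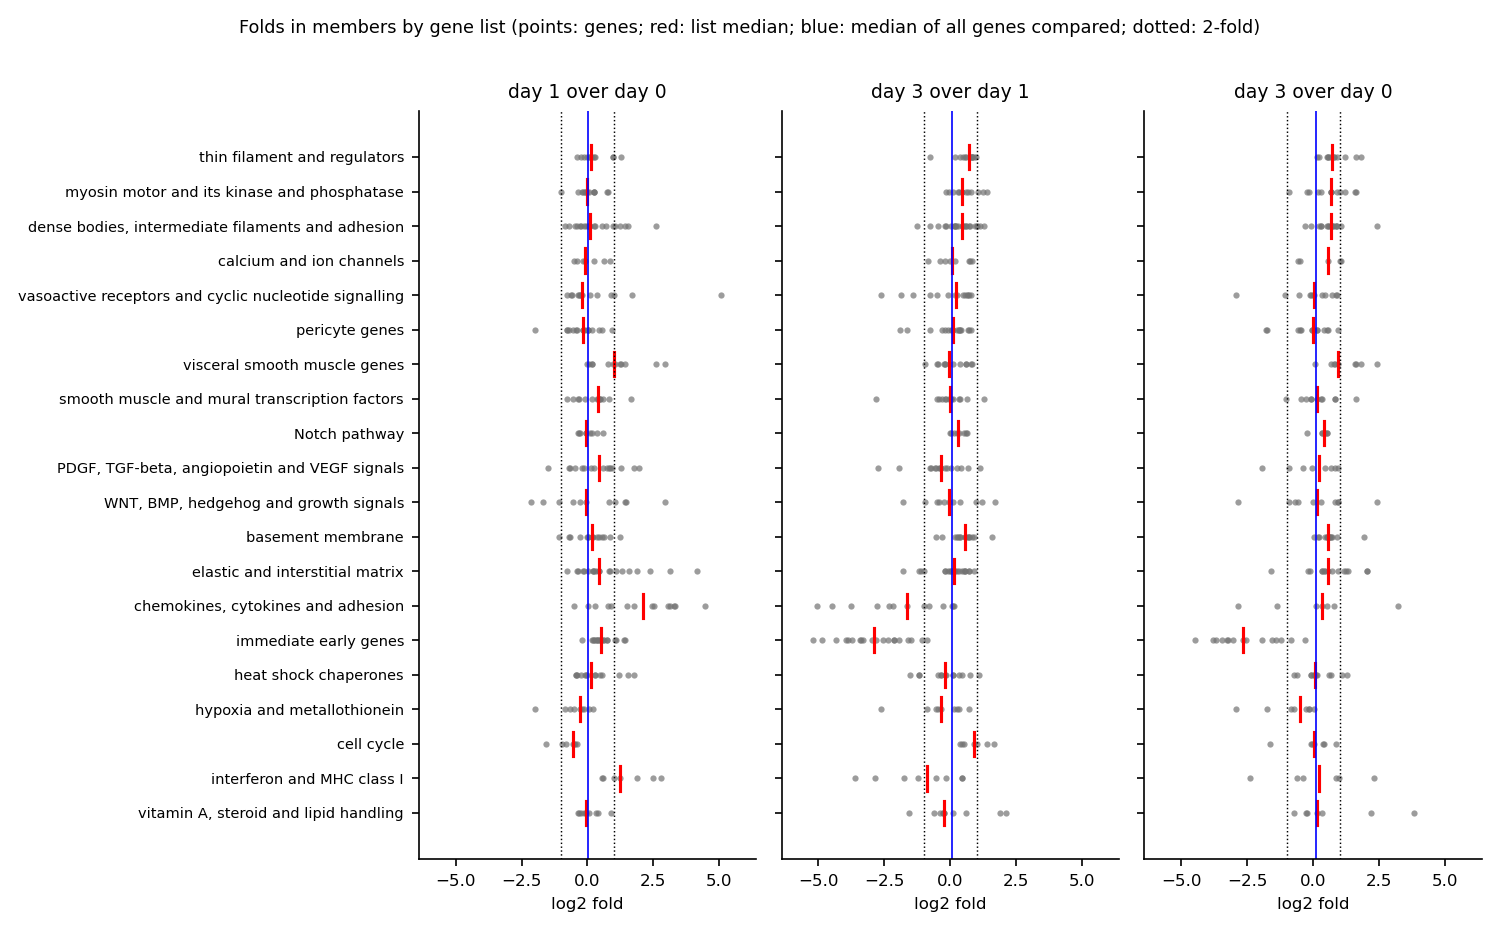
Log2 ratios of levels between days for the genes of each functional list, 1 point for each gene, with the median of each list and of all genes. Immediate early genes lie at a median of -2.89 for day 3 against day 1, and thin filament genes at 0.69.

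Over all members, pericyte genes passed 2-fold about as often as all genes. They had 1 of 17 lower and none higher between days 0 and 1, 2 of 17 lower between days 1 and 3, and 2 of 14 lower between days 0 and 3, where 8.16%, 10.3% and 10.4% of all genes passed in either direction. In pericyte-like cells alone they had 2 of 15 higher and 1 lower, none of 14 higher and 2 lower, and 2 of 13 higher and 2 lower. There 7.13%, 12.7% and 13.1% of all genes passed. The share of pericyte genes was thus larger in each comparison, though close to that of all genes between days 1 and 3. Notch genes had none of 9, 8 and 6 past 2-fold in the 3 comparisons, with medians of -0.06, 0.29 and 0.39. HEYL, a target of NOTCH3 in mural cells, was at 1.38, 1.11 and 1.73 UMIs per 10000, and its ligand JAG1 at 1.24, 0.960 and 1.05. HEY1, another Notch target, had 15, 42 and 0 UMIs on the 3 days. Channels and calcium handling genes had none of 7 and none of 8 past 2-fold in the first 2 comparisons, and 2 of 5 higher on day 3 than on day 0 (ATP2A2 and ATP2B4), against 5.15% of all genes, with a median of 0.54. With TMM scaling none of the 5 passed, and without the glia-like and leukocyte-gene cells 1.

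The other lists are read against the shares of all genes, which were 6.09% higher and 2.07% lower for day 1 against day 0, 3.17% and 7.16% for day 3 against day 1, and 5.15% and 5.24% for day 3 against day 0. The vasoactive signalling genes had 3 of 14 higher on day 1 than on day 0, 3 of 14 lower on day 3 than on day 1 and 2 of 12 lower on day 3 than on day 0. The 3 higher on day 1 were EDNRA, EDNRB and RAMP1, and the counts depended on the cells: without the glia-like and leukocyte-gene cells none of 12 was higher on day 1, and with at least 10 rule UMIs 1 of 12. Endothelin receptor EDNRA was at 0.646, 1.30 and 1.21 UMIs per 10000, and the vasodilator peptide adrenomedullin (ADM) at 1.97, 1.60 and 0.256. The PDGF, TGF and angiopoietin genes had 3 of 16 higher and 1 lower, 1 of 16 higher and 2 lower, and none of 8 higher and 1 lower in the 3 comparisons, with 2 of 8 higher in the last without the glia-like and leukocyte-gene cells. PDGFRB itself was at 4.94, 3.02 and 4.82 UMIs per 10000, and at 5.65, 5.11 and 7.92 in pericyte-like cells. The heat shock genes had 3 of 14 higher on day 1 (CRYAB, DNAJB1 and HSP70.2), 1 of 14 higher and 3 lower on day 3 against day 1, and 2 of 12 higher on day 3 against day 0. Without the glia-like and leukocyte-gene cells 1 of 13 was lower on day 3 against day 1, in place of 3. With a limit of 5 rule UMIs per 10000 only 1 of the 14 was higher on day 1 and 1 was lower, and the day 1 ratios of DNAJB1 and HSP70.2 turned to 0.937 and 0.244. The abundant chaperone HSPA8, at 5.90, 8.15 and 6.45, was below its free RNA level of 13.2, 12.8 and 13.9. The hypoxia genes had 1 of 9, 1 of 9 and 2 of 8 lower in the 3 comparisons and none higher. The cell cycle genes had 1 of 7 lower between days 0 and 1, TOP2A, whose ratio turned to 1.42, from 9 and 24 UMIs, in cells with a mitochondrial share under 25%. The vitamin A and lipid genes had none of 10 past 2-fold between days 0 and 1, 2 of 11 higher (FABP4 and FABP5) and 1 lower (ZBTB16) on day 3 against day 1, and 2 of 7 higher on day 3 against day 0. On day 3, 3 cells held 88.0% of the FABP4 and 55.6% of the FABP5 UMIs. The transcription factor genes had 1 of 14 higher and none lower, 1 of 14 higher and 1 lower, and 1 of 11 higher and 1 lower in the 3 comparisons. The WNT, BMP and growth signal genes went both ways, with 4 of 11 higher and 3 lower, 2 of 11 higher and 1 lower, and 1 of 10 higher and 1 lower in the 3 comparisons.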

How the data were processed

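The study measured ileum cells of piglets by droplet single-cell RNA-seq (10x Genomics), 1 library at each of 6 ages. The deposited values are raw UMI counts for each gene and barcode, which the authors made with Cell Ranger (3.1.0 and STAR in the submitters' processing notes) against susScr11. The label gives a V3 kit and the study's methods a v.2 kit, and the study gives 5 piglets at each age and 1 chip channel for each, without saying how the cells of the piglets were combined. Library totals lay between 77391932 and 100348769 UMIs.

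Members were chosen by the rule in the report, and the members and gene lists were chosen with earlier results of these data known. Counts were summed over members of a library and divided by their total. A gene entered a pair of days with at least 50 UMIs over both, and the 4 rule genes were left out of it. A 2-fold difference was counted. Intervals were exact Poisson, Clopper-Pearson or conditional binomial at 95%. Named genes were members of the 20 fixed lists, the 8 leading genes of each cluster, the 20 genes highest against all other cells, the 10 highest against fibroblast-rule cells, and up to 12 genes in each direction for a pair of days (a UMI in at least 10% of members and a level at least 2 times that of free RNA); other names were chosen after their values were seen.

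Members were clustered with scanpy 1.11.5 and leidenalg 0.10.2 (1000 variable genes, 15 principal components, 15 neighbours, resolution 0.5, libraries centred) and named from 14 marker lists. Scrublet marked 0, 4, 1, 2, 3 and 0 barcodes as doublets over the 6 libraries, so it had not worked and none was removed; an alternative left out the highest scores, which held 10, 20 and 8 members of days 0, 1 and 3. Scripts were tested on simulated data. Python 3.11.15, numpy 2.4.6, pandas 2.3.3, scipy 1.17.1 and edgeR 4.0.16 (TMM scaling only) were used. Gene positions are from the RefSeq annotation of Sscrofa11.1, and promoter, transcript and protein sequences were not used here. A few items are not reported here.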

Additional observations from a re-analysis of the deposited data

Results flagged for a closer look

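The comparisons above use days 0, 1 and 3. Outside them, 4 barcodes of the day 14 library met the rule, which flagged them as a signal in data that no comparison used. Their 10548 UMIs held 56 of RGS5, 34 of ACTA2, 15 of TAGLN and 3 of RASL12, and also 163 of CXCL10 and 60 of ISG15. The 2 members of day 21 held 5695 UMIs, with 16 of RGS5, 33 of TAGLN, 13 of ACTA2 and 7 of RERGL. Cells with pericyte transcripts were thus present in both later libraries, at counts too small to compare with the earlier ones.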

How the results depend on the processing

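With 1 library at each age, differences between piglets, preparations and ages cannot be told apart, and leaving out a library leaves only the comparison of the other two. No paired analysis was possible because each age has a single library and the labels give no replicate numbers. Cell numbers of 97, 151 and 56 limit rare genes, and class values rest on fewer.

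The share of members changed its order for days 0 and 1 with a limit of 5 rule UMIs per 10000, giving 1.69%, 1.66% and 0.704%. Under the other settings tried the order held, for example at 0.879%, 1.255% and 0.465% without the highest doublet scores. The counts of genes that differed at least 2-fold moved with the genes admitted and the cells counted. For day 1 against day 0 they were 129 in pericyte-like cells alone, 64 after thinning to 1000 UMIs (of 661 genes), 4760 with a minimum of 1 UMI, 56 with a minimum of 200 and 164 for genes at least 2 times their free RNA level. For day 3 against day 1 they were 77, 5335, 77 and 179 after thinning, with a minimum of 1 or 200 and with the free RNA limit. For day 3 against day 0 they were 42, 5106, 34 and 121. Fewer or more genes were tested under each of these by construction.

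Of 2335 recomputed folds of named genes, 23 changed direction, 219 moved and 2093 did not. In pericyte-like cells alone, an alternative chosen after seeing the data, the ratios of day 1 to day 0 were 0.262 for C3, 0.429 for DCN, 0.544 for GREM1, 0.0 for HHIP (1 UMI and none), 0.898 for POSTN, 0.699 for SYNM, 0.175 for TGFBI and 0.941 for APOA1. Of day 3 to day 1 they were 5.28 for C3, 1.76 for DCN, 2.64 for RAMP1 and 2.77 for TNC, and of day 3 to day 0 0.0 for CXCL10 and DHRS3 (1 UMI and none for each) and 0.532 for APOA1. Each of these rested on at most 44 UMIs on a day. Without the glia-like and leukocyte-gene cells, also chosen after seeing the data, APOA1 gave 0.918 and 0.503. With 5 rule UMIs per 10000, day 1 to day 0 was 0.937 for DNAJB1 and 0.244 for HSP70.2, and day 3 to day 0 was 0.251 for HSP70.2. With a mitochondrial share under 25%, TOP2A gave 1.42 and 1.36. Without the highest doublet scores 219, 273 and 191 genes differed in the 3 comparisons, and 26 of 213 named folds moved, none in direction, with FOS at 0.0116 for day 3 against day 1 and 0.021 for day 3 against day 0, and EDNRB at 7.65 for day 1 against day 0. After thinning, HSPB6 gave 0.990 for day 3 against day 0. Beyond the cells and genes each setting admits, the cause was not tested.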

Other observations

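Some genes with wide ratios between days rested on few UMIs or few cells. C4A, a complement component, had 1 UMI on day 0 and a ratio of day 1 to day 0 of 62.4 (11.0 to 2490), with 53.0% of its day 1 UMIs in 3 cells. RAMP1, a coreceptor for calcitonin gene-related peptide, also had 1 UMI on day 0, with a ratio of 33.7 (5.82 to 1350). RGS16, another regulator of G protein signalling, was by contrast at 1.63, 10.1 and 0 UMIs per 10000 in pericyte-like cells on days 0, 1 and 3, and at 0, 0.159 and 0 in smooth muscle-like cells. APOA1, an apolipoprotein of enterocytes, was at 2.19, 7.13 and 6.36 in the members and at 12.6, 28.3 and 0.249 in free RNA, and it stood at 89.5 in the glia-like cells against 0.896 in the pericyte-like cells.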
